A study of Mus musculus with 28 samples.

Results

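The 10 genes described here encode amino acid transporters of the plasma membrane: Slc7a1, Slc7a5, Slc7a11, Slc3a2, Slc1a4, Slc1a5, Slc38a1, Slc38a2, Slc6a6 and Slc7a7. They were taken by name from the 18193 genes that the arrays measure with a probe set listed for a single gene symbol. Where several probe sets were listed for a gene, its values come from the probe set that was brightest on average across the 26 tissue arrays. All 10 were measured on every array and no filter on low values was used. The data are log2 values from Affymetrix arrays of whole tissue RNA, with array medians from 5.00 to 5.18, so that 1 unit is a 2-fold difference. The normal tissues are the mammary gland (NMG) and lung parenchyma (NL), with 3 arrays each. The tumors are 11 primary mammary carcinomas (PT) and 9 metastases in the lung (LungMets). Cultured JygMC(A) cells gave 1 array from a monolayer and 1 from 3D spheres.

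All tissue came from BalbC nude mice, which lack a thymus and most T lymphocytes. PT and LungMets grew in female mice, 8 weeks old per the study's methods, after 50000 JygMC(A) cells were placed in the 4th mammary gland. The methods state that both sides were injected, with 50000 cells in each gland, so a mouse could bear a primary tumor on each side. JygMC(A) is a single mouse mammary carcinoma line, and the methods name the injected cells as a derivative with a GFP and luciferase reporter. The labels date PT to day 30 and LungMets to day 50 after injection, whereas NMG and NL came from mice of 6 to 8 weeks without tumor cells. The labels name no treatment for any group. Per the methods the primary tumors were removed from the mice, so LungMets of day 50 may come from operated mice. In LungMets against PT, surgery and day cannot be told apart from the site. The labels do not tie arrays to mice. The methods mention fragments from 8 tumor-bearing mice, fewer than the 11 PT arrays, so if the arrays came from these mice some share a mouse. The p-values then measure the spread between samples.

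The groups were checked against marker genes of their tissue. The mean of 13 lung epithelium genes was 11.98 to 12.01 in NL and 5.57 to 7.44 in NMG. The mean of 8 adipocyte genes was 10.70 to 11.42 in NMG and 5.02 to 6.58 in PT. LungMets carried lung markers: their lung epithelium mean reached 10.97, with a median of 10.58, against a PT median of 5.33. A pair of arrays went against its labels: PT replicate 5 had a lung epithelium mean of 10.34 and LungMets replicate 9 one of 6.61. PT replicate 5 correlated at 0.968 with the other PT and at 0.989 with LungMets, and LungMets replicate 9 at 0.963 with its own group and at 0.983 with PT. Both were kept under their labels, and the comparisons of LungMets with PT are also given without them. By the dates in the labels, 4 PT, 4 LungMets and both cell line arrays fall on date 1, 7 PT and 5 LungMets on date 2, and NL and NMG each on a date of their own. For NMG and NL, date and tissue cannot be told apart.

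Amino acid transporters carry nutrients across the plasma membrane, some by moving with sodium and others by trading one amino acid for another. Slc3a2 encodes the heavy chain 4F2hc (CD98), which brings the light chains of the SLC7 family, such as LAT1, xCT and y+LAT1, to the cell surface. In growing cells, leucine taken up by LAT1 is a signal to the mTORC1 kinase, and the transcription factor ATF4 turns on several of these transporters when amino acids run short. ATF4 binds such genes with C/EBP partners at C/EBP-ATF response elements, and NRF2 binds antioxidant response elements, for example at genes of glutathione supply.

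RefSeq promoter windows (build GRCm38.p6), from 250 bases before to 50 after the start of a transcript, were given for 6 of the 10 members in 11 windows. The other members, Slc7a5, Slc1a5, Slc38a1 and Slc6a6, had none in the table. Each window was searched on both strands for 3 motifs: TGATGNAA for the C/EBP-ATF response element, TGACNNNGC for the antioxidant response element and CACGTG for the E-box bound by MYC and related factors. These occurred in 3.97%, 12.4% and 7.15% of all 32851 windows. The windows shown are those of Slc7a11 and Slc1a4, which hold the first motif, of Slc38a2, which holds the second, and of Slc3a2, the member with the largest difference between the cell line arrays, which holds none of the 3. Capitals mark the match, the sequence runs 5′ to 3′ on the strand of the gene, and a match is a description of the letters only.
Slc7a11 (chr3:50443564-50443863, minus strand): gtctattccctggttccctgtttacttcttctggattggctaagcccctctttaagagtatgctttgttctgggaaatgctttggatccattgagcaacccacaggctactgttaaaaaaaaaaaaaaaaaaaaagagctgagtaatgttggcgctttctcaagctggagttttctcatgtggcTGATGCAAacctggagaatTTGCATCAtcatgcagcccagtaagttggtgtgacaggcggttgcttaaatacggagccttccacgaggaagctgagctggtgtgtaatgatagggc
Slc1a4 (chr11:20332664-20332963, minus strand): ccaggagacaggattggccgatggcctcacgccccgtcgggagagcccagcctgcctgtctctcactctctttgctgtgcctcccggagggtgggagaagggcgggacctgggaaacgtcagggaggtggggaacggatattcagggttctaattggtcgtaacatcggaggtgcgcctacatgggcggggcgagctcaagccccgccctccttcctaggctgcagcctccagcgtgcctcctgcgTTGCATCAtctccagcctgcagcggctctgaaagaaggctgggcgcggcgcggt
Slc38a2 (chr15:96699679-96699978, minus strand): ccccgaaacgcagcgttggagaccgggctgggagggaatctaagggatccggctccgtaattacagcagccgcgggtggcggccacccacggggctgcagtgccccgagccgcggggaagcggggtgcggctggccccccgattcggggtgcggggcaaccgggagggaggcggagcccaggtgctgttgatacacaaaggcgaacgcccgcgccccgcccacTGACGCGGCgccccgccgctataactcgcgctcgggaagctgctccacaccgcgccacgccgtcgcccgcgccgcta
Slc3a2 (chr19:8713848-8714147, minus strand): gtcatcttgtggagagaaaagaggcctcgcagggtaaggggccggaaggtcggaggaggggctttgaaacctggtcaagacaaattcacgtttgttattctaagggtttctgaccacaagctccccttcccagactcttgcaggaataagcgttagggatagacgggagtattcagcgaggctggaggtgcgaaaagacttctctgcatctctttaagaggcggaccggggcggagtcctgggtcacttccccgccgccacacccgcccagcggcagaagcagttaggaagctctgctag

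In Slc7a11 the motif stood at -66 and, on the opposite strand, at -47 from the transcript start of that window. The windows of Slc7a11, Slc3a2 and Slc7a7 belong to transcripts that start inside the annotated span of the gene. In Slc1a4 it stood at -4 on the opposite strand. The first motif also occurred in windows of Slc7a7, at -141 and -1 in one of them. The antioxidant motif stood at -27 in Slc38a2 and at -11, on the opposite strand, in Slc7a1. No member window held the E-box letters.

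PT against NMG asks how the mammary tumor differs from normal mammary gland of other mice without tumor cells. With limma fitted to all tissue arrays and an adjusted p under 0.05, 4 of 10 members were higher in PT (Slc7a1, Slc7a5, Slc3a2 and Slc1a4) and 3 were lower (Slc1a5, Slc38a1 and Slc7a7). Among all genes 47.7% were called in this comparison, 26.7% higher and 21% lower. The median log2 difference was 0.30 over the members and 0.09 over all genes. In 4 members PT and NMG did not overlap, as in 34.3% of all genes. PT is bulk tissue, so here and below a lower level from fewer cells of a type cannot be told apart from one from less RNA per cell.

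The 2 members of the SLC1 family differed most, and in opposite directions. Slc1a4 encodes ASCT1, a sodium-dependent exchanger of alanine, serine, cysteine and threonine. Its log2 value was 5.34, 4.86 and 4.95 in the 3 NMG, 7.92 to 9.51 in PT (median 8.30), 7.78 to 8.87 in LungMets (median 8.35) and 7.45, 7.68 and 7.92 in the 3 NL. Every tumor array and every NL array lay above every NMG array. PT exceeded NMG by 3.41 ± 0.245 (SE, n = 11 and 3), a 10.7-fold difference (limma, adjusted p = 3.89e-11), and NL exceeded NMG by 2.64 ± 0.307 (adjusted p = 3.07e-07). The other Slc1a4 probe sets were also higher in PT than in NMG, by 2.25 and 1.24.

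Slc1a5 encodes ASCT2, a sodium-dependent exchanger of neutral amino acids best known for glutamine uptake. It was 9.45, 9.34 and 10.36 in the 3 NMG, 7.97, 7.27 and 8.01 in the 3 NL, 5.84 to 7.29 in LungMets (median 6.57) and 5.63 to 6.52 in PT (median 6.01). NMG lay above all other arrays, and PT lay below every NL array. PT was lower than NMG by a log2 difference of -3.65 ± 0.251, 12.6-fold (limma, adjusted p = 1.82e-11), and lower than NL by -1.68 ± 0.251 (adjusted p = 3.27e-06). A second probe set gave -1.81 in PT against NMG. NMG also carried the highest adipocyte means and the highest lymphocyte means, 9.05 to 9.29 for 11 lymphocyte genes against 4.31 to 7.06 in PT, and the part of these cells in the Slc1a5 difference was not tested. In the JygMC(A) cells, 1 array each, Slc1a5 read 6.52 in the monolayer and 6.77 in spheres, below every NMG and NL array. Both lay above every PT array, the monolayer only before rounding.

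**Figure D1:**
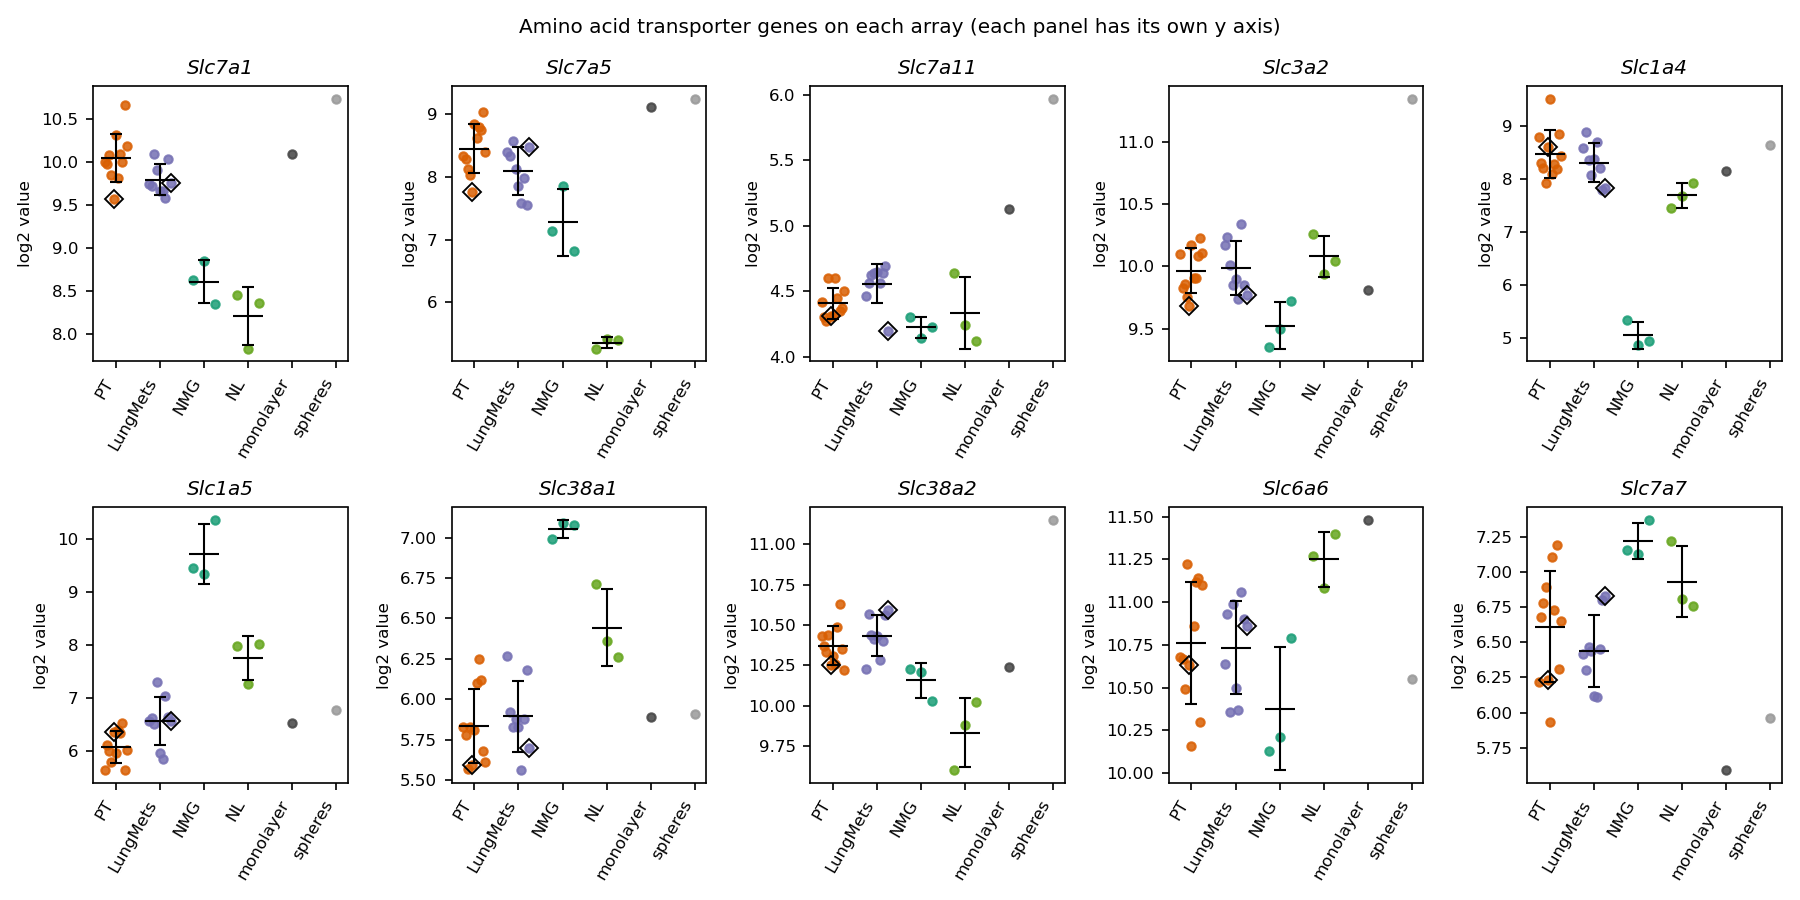
Log2 value of each of the 10 genes (y axis, own scale per panel) on every array, by group (x axis: 11 PT, 9 LungMets, 3 NMG, 3 NL, 1 monolayer, 1 spheres). Points are arrays, bars the group mean ± SD, and open diamonds PT replicate 5 and LungMets replicate 9; Slc1a4 is lowest in NMG (4.86 to 5.34) and Slc1a5 highest there (9.34 to 10.36).

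Slc7a1 and Slc7a5 were called higher in both tumor groups than in both normal tissues, the smallest of these differences being that of Slc7a5 between LungMets and NMG. Slc7a1 encodes CAT1, a transporter of the cationic amino acids arginine, lysine and ornithine. It was 9.57 to 10.66 in PT (median 10), 9.58 to 10.10 in LungMets (median 9.75), 8.63, 8.85 and 8.35 in NMG, and 8.45, 7.83 and 8.36 in NL. No tumor array overlapped a normal one. PT exceeded NMG by 1.43 ± 0.162, 2.70-fold (limma, adjusted p = 9.58e-08), and LungMets exceeded NL by 1.59 ± 0.166, 3.00-fold (adjusted p = 3.99e-08). A second probe set gave 1.12 and 1.61.

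Slc7a5 encodes LAT1, the light chain that takes up leucine and other large neutral amino acids. It was 7.76 to 9.03 in PT (median 8.39), 7.55 to 8.58 in LungMets (median 8.13), 7.14, 7.86 and 6.82 in NMG, and 5.26, 5.42 and 5.40 in NL. PT replicate 5, the array with lung markers, was the lowest PT and the only one under the highest NMG. PT exceeded NMG by 1.18 ± 0.242, 2.26-fold (limma, adjusted p = 0.000273). LungMets exceeded NMG by 0.83 ± 0.247 (adjusted p = 0.00958), with 6 of 9 LungMets above every NMG, and this call was lost without NMG replicate 1 (0.76, adjusted p = 0.0516) or 3 (0.60, adjusted p = 0.114). NL lay far below all other arrays, so that PT exceeded NL by 3.09 ± 0.242, 8.50-fold (adjusted p = 1.47e-10), and LungMets exceeded NL by 2.73 ± 0.247, 6.66-fold (adjusted p = 4.08e-09). Slc7a5 has a single probe set here. The mean of 11 proliferation genes was also higher in the tumors, 9.71 to 10.25 in PT and 8.64 to 10.01 in LungMets against 7.37 to 9.27 in NMG and 6.11 to 6.62 in NL. The part of cell proliferation in the differences of Slc7a1 and Slc7a5 was not tested.

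Slc3a2, the shared heavy chain, had group means within a narrow range, from 9.52 in NMG to 10.08 in NL. It was 9.68 to 10.23 in PT (median 9.91), 9.74 to 10.34 in LungMets (median 9.90), 9.35, 9.50 and 9.72 in NMG, and 10.26, 9.94 and 10.04 in NL. The tumors and NL overlapped, and NMG was the low group. PT exceeded NMG by 0.44 ± 0.127, 1.36-fold (limma, adjusted p = 0.00574), a call lost without NMG replicate 1 (0.36, adjusted p = 0.0603). NL exceeded NMG by 0.56 ± 0.160 (adjusted p = 0.00932), lost without NL replicate 1 (0.47, adjusted p = 0.0552) or NMG replicate 1 (0.47, adjusted p = 0.0559). LungMets and NL differed by -0.09, with a 95% interval from -0.36 to 0.18 (adjusted p = 0.589).

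Slc7a7 encodes y+LAT1, which trades cationic for neutral amino acids and is known from kidney, intestine and macrophages. It was 5.93 to 7.19 in PT (median 6.68), 6.11 to 6.83 in LungMets (median 6.44), 7.16, 7.13 and 7.37 in NMG, and 7.22, 6.81 and 6.76 in NL, against 5.59 in the monolayer and 5.96 in spheres. Only PT replicate 9 reached the NMG range, and the monolayer lay below every tissue array. PT was lower than NMG by -0.61 ± 0.201, 1.53-fold (limma, adjusted p = 0.0149), a call lost without NMG replicate 3 (-0.54, adjusted p = 0.0843) and with the second probe set (-0.31, adjusted p = 0.111). The mean of 14 macrophage genes was 4.49 and 4.74 in the cell line arrays, 8.21 to 8.73 in NMG, 7.88 to 8.42 in NL, 7.05 to 8.21 in PT and 7.98 to 8.93 in LungMets. The part of macrophages in the Slc7a7 values was not tested.

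Slc7a11 encodes xCT, the light chain that takes up cystine in exchange for glutamate and so feeds glutathione synthesis. It read low in all tissue: 4.27 to 4.60 in PT (median 4.37), 4.20 to 4.69 in LungMets (median 4.62), 4.30, 4.14 and 4.23 in NMG, and 4.64, 4.24 and 4.12 in NL. These values lie below the array medians, at 25.2% to 28.1% of genes ranked by group mean. The cell line arrays were higher, 5.13 in the monolayer and 5.97 in spheres, above every tissue array. Its only call was LungMets over NMG, by 0.34 ± 0.105 (limma, adjusted p = 0.0126), which was lost without NMG replicate 2 (0.29, adjusted p = 0.0724). LungMets against NL was 0.22 and not called (adjusted p = 0.0831). That difference passed in 5 of 36 alternatives, among them without LungMets replicate 9 (0.27, adjusted p = 0.0231). The second Slc7a11 probe set had group means of 2.63 to 2.78, beside tissue values of 2.86 to 3.23 for the mean of 3 Y-linked genes, a reference for low signal.

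Among the sodium-coupled SLC38 carriers of small neutral amino acids, Slc38a1 fell clearly in the tumors. It encodes SNAT1, a glutamine carrier. It was 6.99, 7.09 and 7.08 in NMG, 6.71, 6.36 and 6.26 in NL, 5.57 to 6.25 in PT (median 5.81) and 5.56 to 6.27 in LungMets (median 5.88). NMG lay above all other arrays and PT below all NL arrays, while LungMets replicate 1 just reached the lowest NL. PT was lower than NMG by -1.22 ± 0.141, 2.33-fold (limma, adjusted p = 1.26e-07), and LungMets were lower than NL by -0.55 ± 0.144 (adjusted p = 0.00297). The second probe set gave larger differences, -2.98 and -1.58, and was lower still in the monolayer (4.35) and spheres (3.87).

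Slc38a2 encodes SNAT2, the carrier known for its induction when amino acids are scarce. It was 10.22 to 10.63 in PT (median 10.35), 10.23 to 10.59 in LungMets (median 10.43), 10.23, 10.21 and 10.03 in NMG, and 9.60, 9.88 and 10.02 in NL. All tumor arrays lay above all NL arrays, and PT and NMG overlapped. LungMets exceeded NL by 0.60 ± 0.0964, 1.52-fold (limma, adjusted p = 1.68e-05), and PT exceeded NMG by 0.22 ± 0.0941 (adjusted p = 0.0617). Its second probe set went the other way, -1.09 in PT against NMG (adjusted p = 2.53e-08) and -0.46 in LungMets against NL (adjusted p = 0.00246), so the direction of Slc38a2 depends on the probe set. Group means of this second probe set were 8.78 in NMG, 8.19 in NL, 7.69 in PT and 7.73 in LungMets.

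Slc6a6 encodes TauT, the sodium and chloride dependent taurine transporter. It was 10.16 to 11.22 in PT (median 10.68), 10.36 to 11.06 in LungMets (median 10.86), 10.13, 10.21 and 10.79 in NMG, and 11.27, 11.08 and 11.40 in NL. All LungMets lay below all NL, and tumors and NMG overlapped. NL exceeded NMG by 0.87 ± 0.250, 1.83-fold (limma, adjusted p = 0.00909), a call lost without NMG replicate 1 (0.75, adjusted p = 0.0522). LungMets were lower than NL by -0.51 ± 0.204 (adjusted p = 0.0416). That call was lost without any one of LungMets replicates 1, 3, 5 and 6 or any one NL (-0.60 to -0.44). The second Slc6a6 probe set was lower in LungMets than in NL by -1.39, and its PT against NMG value was -0.21, against 0.38 for the first (adjusted p = 0.118).

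**Figure D2:**
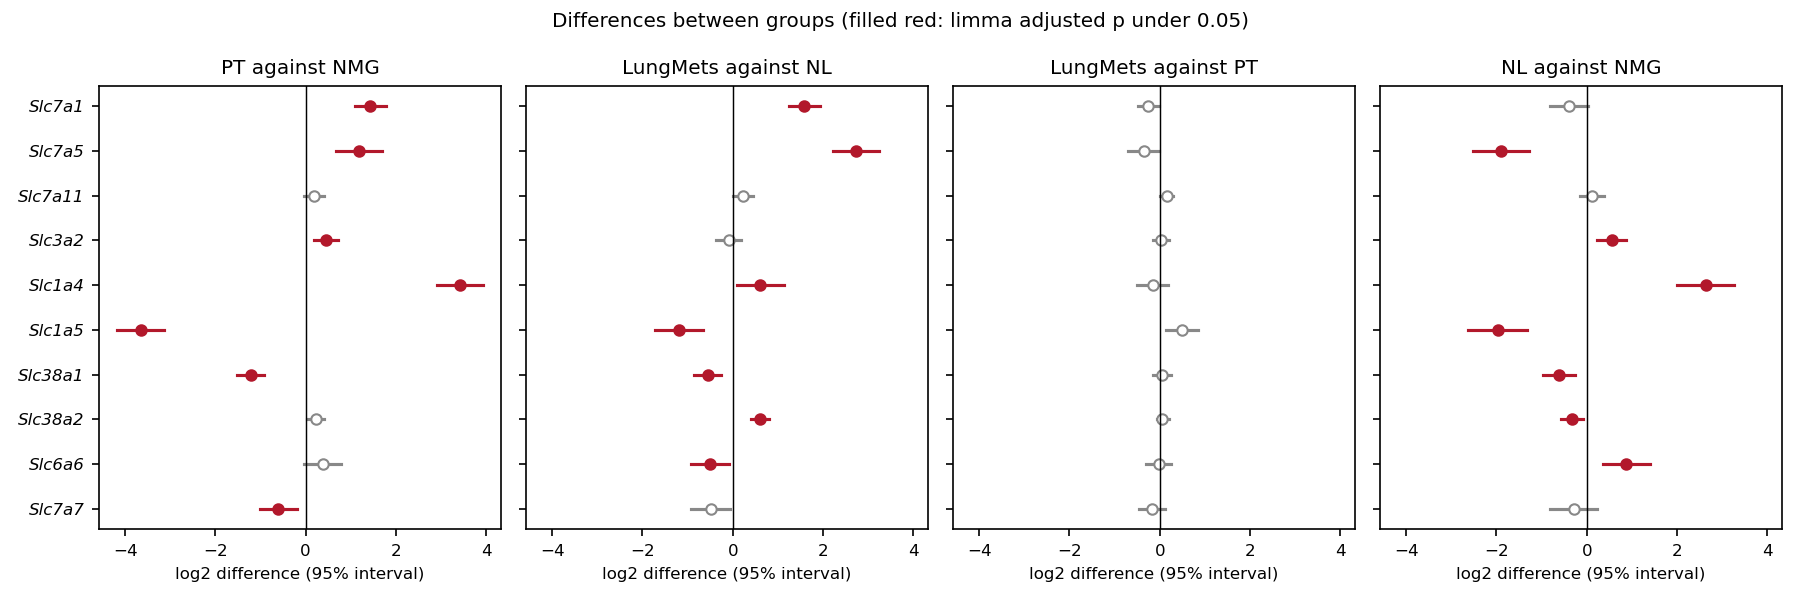
Log2 difference (x axis) with its 95% interval for each of the 10 genes (y axis) in PT against NMG, LungMets against NL, LungMets against PT and NL against NMG, from the limma fit to 26 tissue arrays. Filled red points passed an adjusted p under 0.05: 7, 7, 0 and 7 genes; Slc1a4 and Slc1a5 lie at 3.41 and -3.65 in the first panel.

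LungMets against NL asks how the metastases, which carry lung markers, differ from normal lung of other mice without tumor cells. Here 4 of 10 members were higher in LungMets (Slc7a1, Slc7a5, Slc1a4 and Slc38a2) and 3 were lower (Slc1a5, Slc38a1 and Slc6a6). Among all genes 46.2% were called, 23.8% higher and 22.4% lower. In 4 members the groups did not overlap, as in 34.1% of all genes. The median log2 difference was 0.07 over the members and 0.05 over all genes. Slc1a4 exceeded NL by 0.61 ± 0.251 (limma, adjusted p = 0.0477). That call was lost without any one NL, without any one of LungMets replicates 1, 2, 3, 5, 6 and 7, PT replicates 2, 3, 5, 8 and 11 or NMG replicates 2 and 3 (0.50 to 0.73), and the other Slc1a4 probe sets gave -0.62 and -0.23. Slc1a5 was lower than in NL by -1.19 ± 0.257, 2.29-fold (adjusted p = 0.000497). For Slc7a7 the difference was -0.49 ± 0.206 and did not pass (adjusted p = 0.0524). It passed in 12 of 37 alternatives, and its second probe set gave 0.08.

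The tumor to normal difference was then compared between the organs by an interaction term, LungMets against NL minus PT against NMG. It was called for 7 members, 4 above 0 and 3 below, beside 19.8% of all genes, 10.1% above and 9.68% below. The term was -2.80 ± 0.351 for Slc1a4 (limma, adjusted p = 2.06e-06), whose difference was 3.41 in the mammary gland and 0.61 in the lung. For Slc1a5 it was 2.46 ± 0.360 (adjusted p = 1.7e-05), from -3.65 and -1.19. For Slc7a5 it was 1.56 ± 0.346 (adjusted p = 0.00182), from 1.18 and 2.73. Slc7a1 showed no called term, 0.15 with a 95% interval from -0.33 to 0.63. These terms hold the difference between the normal tissues: NL against NMG called 7 members, 3 higher and 4 lower, beside 28.9% of all genes (14.3% higher, 14.5% lower), and 7 members did not overlap, beside 47.5% of genes. The comparisons share their groups, so their values are not independent. Beside these terms stands the lung epithelium median of 10.58 in LungMets and 12.00 in NL, whose part was not tested.

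Both tumor groups were also set against the normal tissue of the other organ. In LungMets against NMG 9 members were called, 6 higher and 3 lower, where limma called 41% of all genes, 23.1% higher and 17.9% lower, and 7 members did not overlap, beside 29.7% of genes. Slc6a6 was the member not called (0.36, adjusted p = 0.164). The call of Slc3a2 was lost without NMG replicate 1 (0.38, limma adjusted p = 0.0607). That of Slc38a2 was lost without NMG replicate 3 (0.21, adjusted p = 0.159), and its second probe set gave -1.04 (adjusted p = 1.07e-07). The calls of Slc7a5 and Slc7a11 were also lost when an NMG array was left out, as given above. Slc1a4 was higher by 3.25, 9.52-fold (adjusted p = 1.93e-10), and Slc1a5 lower by a log2 difference of -3.16, 8.93-fold (adjusted p = 5.5e-10). In PT against NL 7 members were called, 4 higher and 3 lower, beside 54.4% of all genes, 29.1% higher and 25.3% lower. In 5 members these groups did not overlap, beside 39.4% of genes. Slc7a5 was at 3.09 and Slc1a5 at -1.68. Slc1a4 exceeded NL by 0.78 in PT (adjusted p = 0.00919), a call lost without NL replicate 1 (0.66, adjusted p = 0.0644), and its other probe sets gave -0.52 and -0.09.

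LungMets against PT asks what changes between the primary site and the lung. None of the 10 members passed limma at adjusted p under 0.05, nor with the ordinary ANOVA contrasts, while 4 had an unadjusted p under 0.05 and 15.2% of all genes were called, 9.03% higher and 6.13% lower. The groups overlapped in every member. Only 0.11% of all genes lay apart without overlap, so the overlap says little about the members. The members' median difference was 0.00, with -0.02 over all genes. Slc1a5 came nearest, higher in LungMets by 0.49 ± 0.173 with a 95% interval from 0.13 to 0.85 (adjusted p = 0.0566), and 6 of 9 LungMets lay above every PT array. On date 1 alone it was 0.87 (adjusted p = 0.0267), on date 2 alone 0.23 (adjusted p = 0.667), and without PT replicate 5 and LungMets replicate 9 it was 0.52 (adjusted p = 0.0532). It passed without any one of LungMets replicates 5 and 6, PT replicates 5, 7 and 9 and NMG replicate 3 (0.49 to 0.58), and in 9 of 40 alternatives in all. The second Slc1a5 probe set gave 0.01 (adjusted p = 0.974 over all probe sets).

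Slc7a5 was lower in LungMets by -0.35 ± 0.167 (adjusted p = 0.167), and without the 2 arrays that go against their labels by -0.47 (adjusted p = 0.0455). Its value was 0.17 on date 1 and -0.71 on date 2, so the dates differed in sign. Slc7a1 was -0.25 ± 0.112 (adjusted p = 0.142) with all arrays and -0.29 (adjusted p = 0.0707) without these 2. Slc7a11 was 0.15 (adjusted p = 0.164) and passed when LungMets replicate 9 alone was left out (0.19, adjusted p = 0.0396), but not when both arrays were (0.19, adjusted p = 0.0533). For the other members the 95% intervals lay within -0.51 and 0.26. Without both arrays these members were at -0.26 (Slc7a7, adjusted p = 0.21), -0.09 (Slc1a4, 0.774), -0.05 (Slc6a6, 0.852), 0.02 (Slc3a2, 0.923), 0.03 (Slc38a2, 0.803) and 0.06 (Slc38a1, 0.725). In 6 members the LungMets mean fell between those of PT and NL, 60% beside 64% of all genes. The part of lung tissue in LungMets, whose markers are given above, was not tested for these values.

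The light and heavy chain of LAT1 were compared across tumors. Within the 11 PT, Slc7a5 and Slc3a2 correlated at r = 0.788 (permutation p = 0.0049, adjusted 0.0294 over 6 relations) with Spearman's rho = 0.845 (permutation p = 0.0021, adjusted 0.0126). Without PT replicates 5 and 10, the 2 arrays farthest from the median of Slc7a5, r was 0.584 (exact permutation p = 0.102). This leaves fewer arrays over a narrower range, so it cannot tell whether the relation rests on those 2. PT replicate 5 is the array with lung markers. Leaving out 1 PT at a time gave an r of 0.697, without replicate 5, to 0.858. Within the 7 PT of date 2 r was 0.790 (exact permutation p = 0.0683), and date 1 holds too few PT. Within the 9 LungMets r was 0.342 (exact permutation p = 0.361) and rho 0.233 (p = 0.552, exact permutation). The other light chains gave no relation that passed: r was -0.091 in PT and 0.195 in LungMets for Slc7a11, and -0.290 and -0.124 for Slc7a7.

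**Figure D3:**
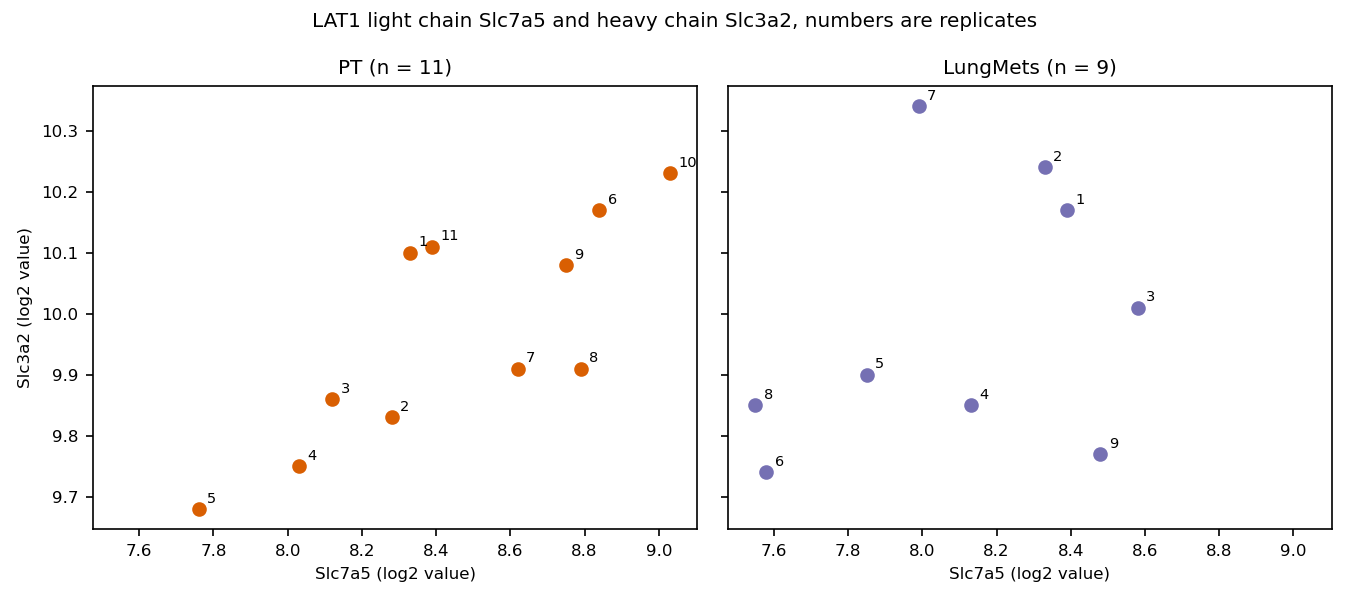
Log2 value of Slc3a2 (y axis) against Slc7a5 (x axis) in 11 PT (left) and 9 LungMets (right); each point is an array, numbered by replicate. In PT r was 0.788 and fell to 0.584 without replicates 5 and 10, and in LungMets it was 0.342.

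Across the 20 tumor arrays, which differ in lung markers and in label date, the members did not vary as a single group. The part of tissue makeup and date in the correlations below was not tested. Correlations between pairs ran from -0.76 for Slc1a4 and Slc7a7 to 0.64 for Slc7a1 with Slc7a5 and for Slc6a6 with Slc7a7. The genes most like each member over these 20 arrays are given as a description. They were Slc4a1ap (r = 0.910) for Slc7a1, Tmc6 (0.889) for Slc7a5, Prox1os (0.814) for Slc3a2, Abcb6 (0.901) for Slc1a4 and Rgl3 (0.925) for Slc1a5. For Slc6a6 they were Gadd45b (0.930) and Trpc1 (0.919), for Slc7a7 Swap70 (0.925), for Slc7a11 Abhd11os (0.796), for Slc38a1 4930447C04Rik (0.743) and for Slc38a2 4833420G17Rik (0.779).

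**Figure D4:**
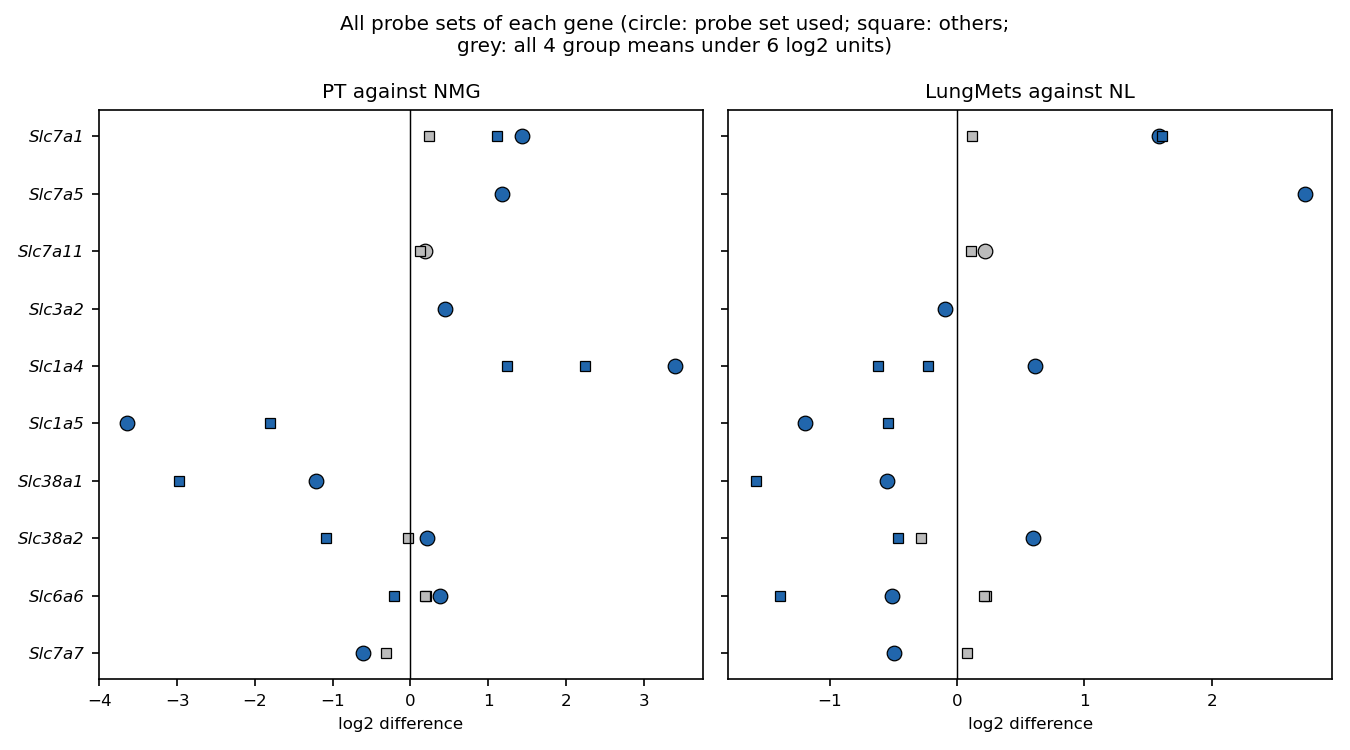
Log2 difference (x axis) of each of the 23 probe sets of the 10 genes (y axis) in PT against NMG and LungMets against NL. Circles are the probe sets used, squares the others, and grey marks probe sets with all 4 group means under 6 log2 units; Slc38a2 has probe sets at 0.22 and -1.09 in PT against NMG, and Slc1a4 at 0.61, -0.23 and -0.62 in LungMets against NL.

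In the JygMC(A) cells, 3D spheres were compared with the monolayer, with 1 array each and no test. Of the members 9 of 10 were higher in spheres, with a median difference of 0.44 beside 0.03 over all genes. The share of all genes that were higher is not given here. Some of the 9 hardly differed: 48.9% of genes had a smaller difference than Slc38a1 (0.02) and 60.7% a smaller one than Slc7a5 (0.13). Only Slc3a2 passed 2-fold. Of all genes 8.12% did, 2.91% higher and 5.21% lower. It read 9.81 in the monolayer and 11.35 in spheres, 2.91-fold, above every tissue array. Slc38a2 went from 10.24 to 11.15, Slc7a11 from 5.13 to 5.97 and Slc7a1 from 10.10 to 10.74, each above every tumor array in spheres. The partner light chain Slc7a5 hardly differed, 9.12 and 9.25, both above every tissue array. Slc6a6 was the exception, 11.48 in the monolayer and 10.55 in spheres.

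Genes of the ATF4 and amino acid response differed alongside. Of 24 listed genes 8 were over 2-fold higher in spheres and none over 2-fold lower, with a median of 0.73. Atf3 was higher by 4.71, Trib3 by 2.41, Cth, which makes cysteine, by 1.60 and Gpt2 by 1.44, while Atf4 itself was higher by 0.29. Proliferation genes went the other way, with 10 of 11 over 2-fold lower and a median of -3.46. As each condition is 1 array, the spread between cultures is unknown.

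**Figure D5:**
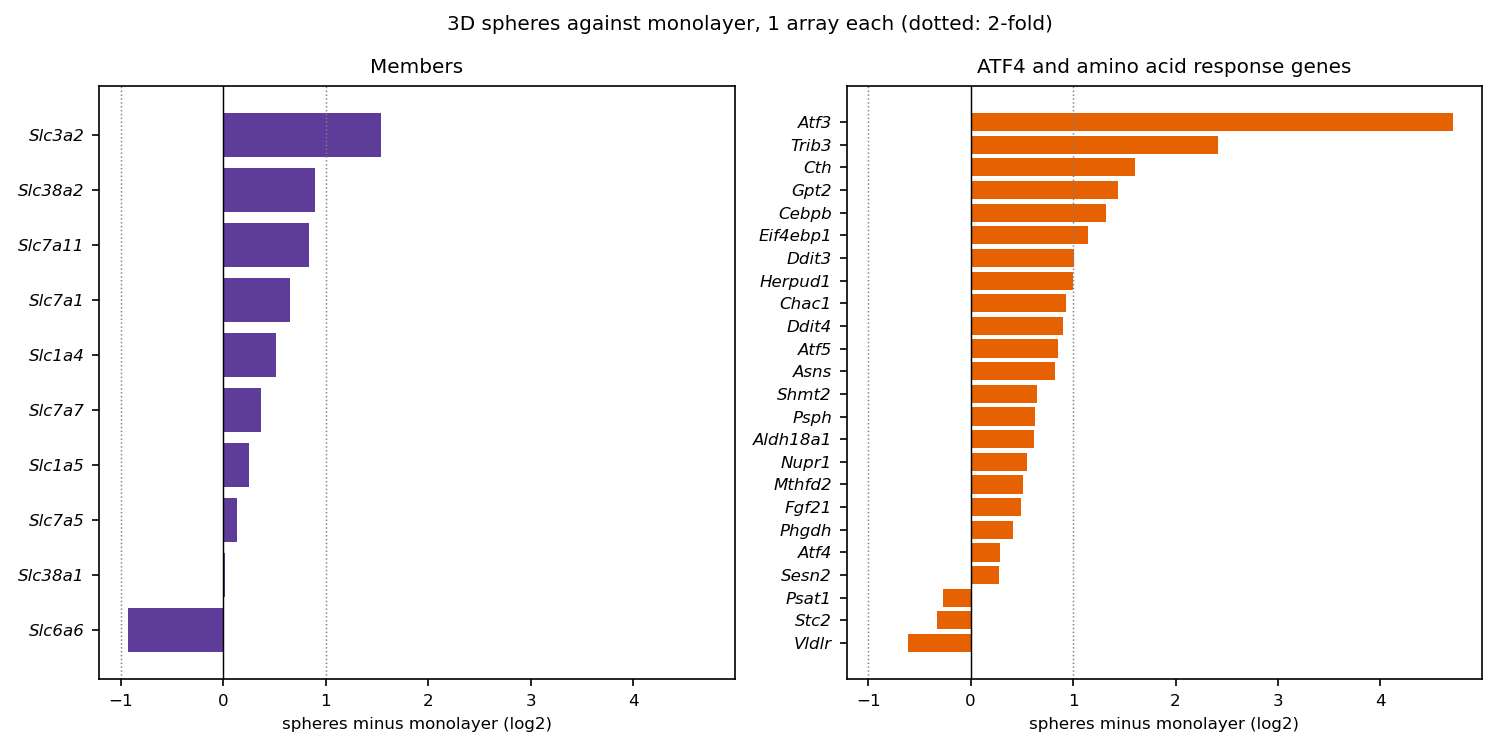
Spheres minus monolayer (x axis, log2) for the 10 members (left) and 24 genes of the ATF4 and amino acid response (right), 1 array each, with dotted lines at 2-fold. Slc3a2 is the only member past 2-fold (1.54), and Slc6a6 is at -0.93.

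The members were set beside the rest of their pathway in tissue. Of 40 other amino acid transporters 4 were higher and 11 lower in PT than in NMG (limma, adjusted p under 0.05), with a median of 0.04, where 26.7% and 21% of all genes were. Slc6a15, a neutral amino acid carrier, was higher by 5.05 (adjusted p = 3.57e-09), whereas Slc36a2, a carrier of glycine and proline, fell by 4.98 (adjusted p = 2.55e-13) and Slc7a10, which carries small neutral amino acids, by 4.19. The NMG means of Slc36a2 and Slc7a10 were 9.90 and 8.78, and their NL means 8.46 and 8.98. All 8 adipocyte genes were also lower in PT than in NMG, with a median of -4.81. The mean of the adipocyte genes was 10.70 to 11.42 in NMG and 6.80 to 7.91 in NL. The part of adipocytes was not tested. Slc7a2, a cationic carrier like Slc7a1, fell by 2.67 (adjusted p = 5.23e-06), opposite to Slc7a1. In LungMets against PT 9 of these 40 were higher and 3 lower, led by Slc38a5 (1.75), Slc36a2 (1.33), Slc7a2 (1.31) and Slc6a14 (1.12), beside 15.2% of all genes called. Without PT replicate 5 and LungMets replicate 9 they were 10 and 2, beside 20.2%, and these genes stood at 2.15, 1.51, 1.43 and 1.33. Slc38a5 and Slc6a14 were highest in NL, with means of 8.94 and 7.12, and the part of lung tissue was not tested.

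The aminoacyl-tRNA synthetases, which load amino acids onto tRNA, were higher in PT than in NMG for 17 of 19 and lower for none (median 0.77), beside 26.7% and 21% of all genes, led by Nars (1.27), Sars (1.21), Farsb (1.15) and Iars (1.12). In LungMets against NL 18 were higher and only Wars was lower (-0.61), beside 23.8% and 22.4% of all genes. Of 24 genes of the ATF4 and amino acid response 12 were higher and 5 lower in PT, with Aldh18a1 at 1.76, Mthfd2 at 1.71, Gpt2 at -1.86 and Stc2 at -2.51. Of 26 genes of mTORC1 and amino acid sensing 5 were higher and 7 lower, among them Depdc5 (1.47), a subunit of GATOR1, and Flcn (-1.17), folliculin.

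In glutamine and glutathione metabolism 6 of 21 genes were higher and 6 lower in PT than in NMG, where 26.7% and 21% of all genes were. The lower ones included Cdo1 (-4.17), which oxidizes cysteine on the way to taurine, and Glul (-2.72), glutamine synthetase. The list of 13 NRF2 genes holds targets and also Nfe2l2, which encodes NRF2, and Keap1. Of these 13 genes 1 was higher in PT, Nqo1 (2.67), and 9 were lower, among them Me1 (-2.58), Tkt (-2.57) and Gsta4 (-2.36). NMG held the most adipocyte signal, and its part in these lower values was not tested. In LungMets against PT the synthetases were lower for 2 and higher for none, and of the ATF4 list 1 was higher and 5 lower, beside 9.03% and 6.13% of all genes. Without PT replicate 5 and LungMets replicate 9, 1 synthetase was higher and 7 were lower, and 2 and 7 of the ATF4 list. Of all 18193 genes 1989 were then higher and 1681 lower.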

How the data were processed

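RNA of 26 whole tissue samples and 2 JygMC(A) cultures was labelled with a 3' IVT kit and hybridized to Affymetrix arrays. The authors deposited log2 values per probe set, made per the labels by RMA in Partek, which the methods give as version 6.6. RMA corrects background, normalizes by quantiles and summarizes probes, so arrays share 1 distribution and absolute shifts are lost. The RMA version and probe set definition are not given in the sources used here. Values were used without further normalization.

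Of 45101 probe sets, 34958 listed 1 gene symbol, 932 several and 9211 none in the platform annotation. Those used (34945) stood for 18193 genes. With limma 3.58.1 (R 4.3.3), a linear model of group means was estimated from the 26 tissue arrays, with two-sided tests and Benjamini-Hochberg adjustment over all genes. Calls needed an adjusted p under 0.05. Correlations used Python 3.11.15 with scipy 1.17.1 (exact permutation for n under 10, otherwise 100000 permutations), and plots matplotlib 3.10.9. Cell line arrays entered no test. The number of arrays limits the precision, above all the 3 NMG and 3 NL.

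Groups came from the labels. Members, lists and tests were chosen with earlier results of these data known, so no list is independent evidence. Named genes were the members, up to 4 called genes with the largest differences per list (PT against NMG, and separately LungMets against PT), the genes most like each member, and markers beside a result. The other genes named for spheres, LungMets against NL (Wars) and Atf4 were chosen after their values were seen. Alternatives were the mean of probe sets, a filter on low values, centred or renormalized arrays, date and replicate number as blocks, array weights, ordinary ANOVA contrasts, fits of 2 groups, a fold threshold and leaving out each array. The probe set with the second highest mean and counts per list without PT replicate 5 and LungMets replicate 9 were added after seeing the data.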

Additional observations from a re-analysis of the deposited data

Results flagged for a closer look

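In LungMets replicate 9, Slc7a11 read 4.20, farther below the other 8 LungMets (4.46 to 4.69) than Dixon's 95% limit allows. Chance marks about 1 in 20 groups in this way. This is the array whose lung epithelium mean was also the lowest of its group, 6.61.

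For 7 members the tumor to normal difference in the lung differed from that in the mammary gland by limma's interaction term, LungMets against NL minus PT against NMG. The log2 terms were 1.56 for Slc7a5 (adjusted p = 0.00182), -0.54 for Slc3a2 (adjusted p = 0.0379), -2.80 for Slc1a4 (adjusted p = 2.06e-06) and 2.46 for Slc1a5 (adjusted p = 1.7e-05). They were 0.67 for Slc38a1 (adjusted p = 0.0185), 0.38 for Slc38a2 (adjusted p = 0.0452) and -0.90 for Slc6a6 (adjusted p = 0.0266). The terms also hold the difference between the normal tissues. NL against NMG called the same 7 members, while LungMets against PT called none. NMG and NL each lie on a date of their own, so for these terms date and tissue cannot be told apart.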

How the results depend on the processing

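Of 37 called differences of members, 21 kept direction and call in every alternative run, as did 0 of 23 not called. In LungMets against PT the count of members called went from 0 to 1 with only genes above the median mean, 2 with arrays centred on their medians, 2 with array weights, 1 without both arrays that go against their labels and 1 on date 1 alone. With a fold over 2 added, 3 were called in LungMets against NL, 4 in LungMets against NMG, 3 in NL against NMG and 3 in PT against NL. Shares of all genes are not given beside the counts in this paragraph, which show only how the members' calls moved. Leaving out 1 array at a time gave 0 to 1 in LungMets against PT, 5 to 9 in LungMets against NL, 7 to 9 in LungMets against NMG, 4 to 7 in NL against NMG (4 without NMG replicate 1), 5 to 7 in PT against NL, 6 to 8 in PT against NMG and 4 to 7 for the interaction (4 without NL replicate 1 or 3 or NMG replicate 1 or 2).

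With the mean of the probe sets Slc38a2 reversed to -0.30 in PT against NMG, to -0.05 in LungMets against NL, -0.29 in LungMets against NMG and -0.05 in PT against NL, and Slc1a4 to -0.08 in LungMets against NL. With the second probe set, Slc38a2 gave -1.09, -0.46, -1.04 and -0.50 in these 4 comparisons, Slc1a4 -0.62 in LungMets against NL and -0.52 in PT against NL, Slc6a6 -0.32 in LungMets against NMG and -0.21 in PT against NMG, Slc7a7 0.08 in LungMets against NL and 0.26 in PT against NL, and Slc7a11 -0.04 in LungMets against PT and -0.02 in NL against NMG. Centring the arrays turned small values of LungMets against PT, to -0.10 for Slc3a2, -0.05 for Slc38a1 and -0.05 for Slc38a2, and of PT against NL to 0.06 for Slc3a2. A further quantile normalization gave -0.07 for Slc38a1, and array weights 0.13 for Slc1a4 in LungMets against PT and 0.04 for Slc3a2 in LungMets against NL. On date 1 alone LungMets against PT was 0.17 for Slc7a5 and 0.16 for Slc1a4, and on date 2 alone -0.09 for Slc3a2 and -0.05 for Slc38a1. Leaving out 1 array turned Slc3a2 (range -0.03 to 0.05) and Slc6a6 (range -0.08 to 0.02) in LungMets against PT, Slc7a11 in NL against NMG (range -0.04 to 0.22, lowest without NL replicate 1) and Slc7a11 in PT against NL (range -0.03 to 0.23, lowest without NL replicate 3). The cause was not tested for any of these.

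For Slc7a5 with Slc3a2 in PT, r was 0.584 without the 2 farthest arrays and 0.790 within date 2, no longer past the threshold. For the relations not called, r changed sign to 0.401 for Slc7a11 in PT (0.158 and 0.00693 without PT replicate 4 or 6), -0.0984 for Slc7a5 in LungMets, -0.126 for Slc7a11 in LungMets (-0.309 without replicate 9 to 0.299) and 0.542 for Slc7a7 in LungMets (-0.416 to 0.115 with 1 array left out), and to 0.112 for Slc7a7 with the mean of probe sets.

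Replicate numbers are shared between groups, but the labels do not say that they pair samples, and of 24 pairs 7 had deviations that correlated over 0.1 (-0.308 to 0.481). All 7 were among the 9 pairs of PT with LungMets, which share a label date. With the replicate number as a block the members called were 7 in PT against NMG, 0 in LungMets against PT, 8 in LungMets against NL, 9 in LungMets against NMG, 7 in NL against NMG, 7 in PT against NL and 5 for the interaction. Shares of all genes with this block are not given here.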
